A study of Ovis aries with 49 samples.

Results

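The ion channel set held 79 of the 10273 probe sets of the table, chosen by gene symbol: those that begin with KCN, SCN and a digit, CACN, CLCN, TRPC, TRPM, TRPV, RYR or HCN, with KCNK3 left out. Of these, 73 were channel subunits or transporters and 6 were non-coding transcripts named after a channel gene (KCNMA1-AS1, KCNQ1-AS1, KCNQ1OT1, RYR3-DT, SCN1A-AS1 and TRPM2-AS). A sheep RefSeq gene of the same symbol was found for 70 of the 79. The subunits were 16 voltage-gated potassium channels, 10 inward rectifiers, 5 2-pore-domain potassium channels, 5 calcium- or sodium-activated potassium channels, 6 auxiliary potassium subunits, 7 pore-forming and 6 auxiliary calcium channel subunits, 4 sodium channels, 3 members of the CLCN family, 9 TRP channels, RYR2 and HCN2. Each symbol had 1 probe set.

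Ion channels are membrane proteins that let potassium, sodium, calcium or chloride ions cross a membrane, and their pore-forming subunits are often joined by auxiliary subunits that alter gating or trafficking. In heart muscle, inward rectifiers hold the resting potential, delayed rectifiers repolarise the cell, L-type calcium channels admit the calcium that triggers contraction and the ryanodine receptor releases more of it from the sarcoplasmic reticulum. Adipocytes are not excitable in this way, but adipose tissue also holds vessels, nerves and, at some sites, adjoining muscle.

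RNA of 5 fat depots of lambs was hybridised to 49 Affymetrix arrays with probes for human transcripts. The groups were epicardial, omental, perirenal, sternal and subcutaneous fat at 28 days and at 7 days of age, with 5 arrays each except subcutaneous fat at 7 days, which had 4. Twins of matched sex were divided between the ages within each mother, no treatment of the lambs is given, and the diet of the mothers is not stated in the labels. The authors describe mothers on a control diet and mothers on that diet with canola oil added. All 49 titles hold a letter C that the labels do not explain. Replicate numbers are written as letters, H to O at 28 days and A to G at 7 days. The authors describe RNA of each depot from 5 animals per diet group, but the labels do not define the numbers as animals. The p-values therefore reflect how far these arrays differ, part of which may be technical.

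The tissue labels were set against defining markers. Of the adipocyte markers, 5 were measured (FABP4, LPL, CIDEC, PPARG and UCP1). Their mean level lay between 2.61 and 3.91 on every array, where the lowest signal of the table was 2.49. UCP1, the uncoupling protein of brown fat, reached 5.51 to 8.22 in perirenal fat at 7 days. TNNI3, the cardiac troponin I subunit, was high on 9 of the 10 epicardial arrays. The muscle creatine kinase CKM exceeded 4 on 9 sternal or subcutaneous arrays, 5 at 28 days and 4 at 7 days, and reached 12.95 on subcutaneous array A at 7 days. Sternal arrays at 28 days were lower as a whole: their probe sets averaged 3.27, while those of the other depots at that age averaged 3.40 to 3.42. At 7 days the average was 3.29 in omental, 3.29 in sternal and 3.31 in subcutaneous fat, and 3.36 in epicardial and perirenal fat. Omental and subcutaneous arrays were thus lower as a whole at 7 days than at 28 days. In tissue samples, fewer cells of a type and less RNA per cell cannot be told apart.

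Most ion channel probe sets gave weak signals. Only 4 of the 79 (5.06%) had a mean of at least 4 on the log2 scale over the 49 arrays, against 17.1% of all 10273 probe sets. These were CLCN5, a chloride and proton exchanger of endosomes, with a mean of 5.84 (5.14 to 7.20), CACNA1A, the pore of the P/Q-type calcium channel best known from neurons, with 5.46 (4.00 to 6.63), KCNMA1, the pore of the large-conductance calcium-activated potassium channel, with 5.12 (2.70 to 7.03), and KCND3, a pore of the transient outward potassium current, with 4.53 (2.84 to 6.06). KCNH2, the pore of the rapid delayed rectifier, averaged 3.75, the T-type calcium channel pores CACNA1I and CACNA1G averaged 3.31 and 3.26, and all others averaged below 3. Of the 79, 67 never passed 4 on any array, 15 never passed 3, and 86.8% of all their values were below 3, against 65.9% of the values of the whole table. At that level, low expression cannot be told apart from poor hybridisation of a sheep transcript to a human probe.

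Some values recurred exactly. To 2 decimals, CLCN5 read 5.73 on 13 arrays, KCNMA1 5.12 on 12, CACNA1A 5.48 on 9 and KCND3 4.06 on 8, and KCNJ4 read 2.49 on 29. Of the 1752 probe sets that averaged 4 or more, 614 had some value that recurred on at least 10 arrays. Recurring values compress the spread within a group, so equal readings of these members carry no order.

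**Figure D1:**
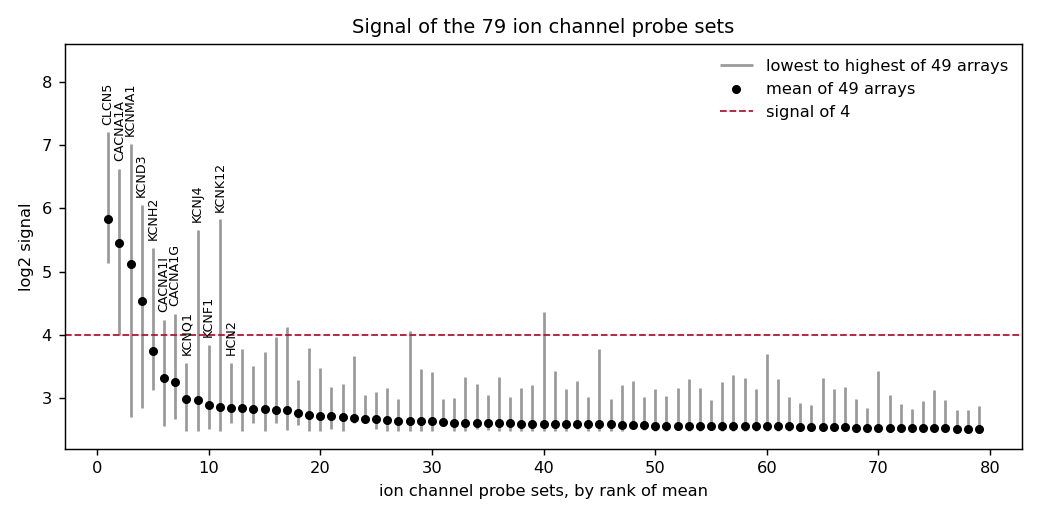
Log2 signal of the 79 ion channel probe sets over the 49 arrays, ordered by mean; points are means, bars run from the lowest to the highest array and the dashed line marks a signal of 4. Only CLCN5, CACNA1A, KCNMA1 and KCND3 have a mean above the line. KCNJ4 and KCNK12 have low means, with 7 and 6 arrays above the line and highest readings of 5.66 and 5.83.

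The first question was which channels differed between depots. In the limma F test over the 5 depots, 10 of the 79 members were called at an adjusted p of at most 0.05 at 28 days, where 20.0% of all probe sets were called, and 3 at 7 days, where 8.16% were called. The members called at 7 days, KCNJ4, KCNH2 and KCND3, were also called at 28 days, together with CACNA1G, KCNQ1, CACNG6, CLCN5, KCNK10, KCNS2 and RYR2. At both ages the members' share, 12.7% and 3.8%, lay below that of the table. By role, 4 of 16 voltage-gated potassium channels, 1 of 10 inward rectifiers, 1 of 5 2-pore-domain potassium channels and 1 of 3 CLCN members were called at either age. Among calcium channels 1 of 7 pore-forming and 1 of 6 auxiliary subunits were called, and RYR2 was the other member. No auxiliary or calcium- or sodium-activated potassium channel subunit, sodium channel, TRP channel or non-coding transcript was called, nor was HCN2. The share of all probe sets called at either age is not given, so the roles are not compared.

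**Figure D2:**
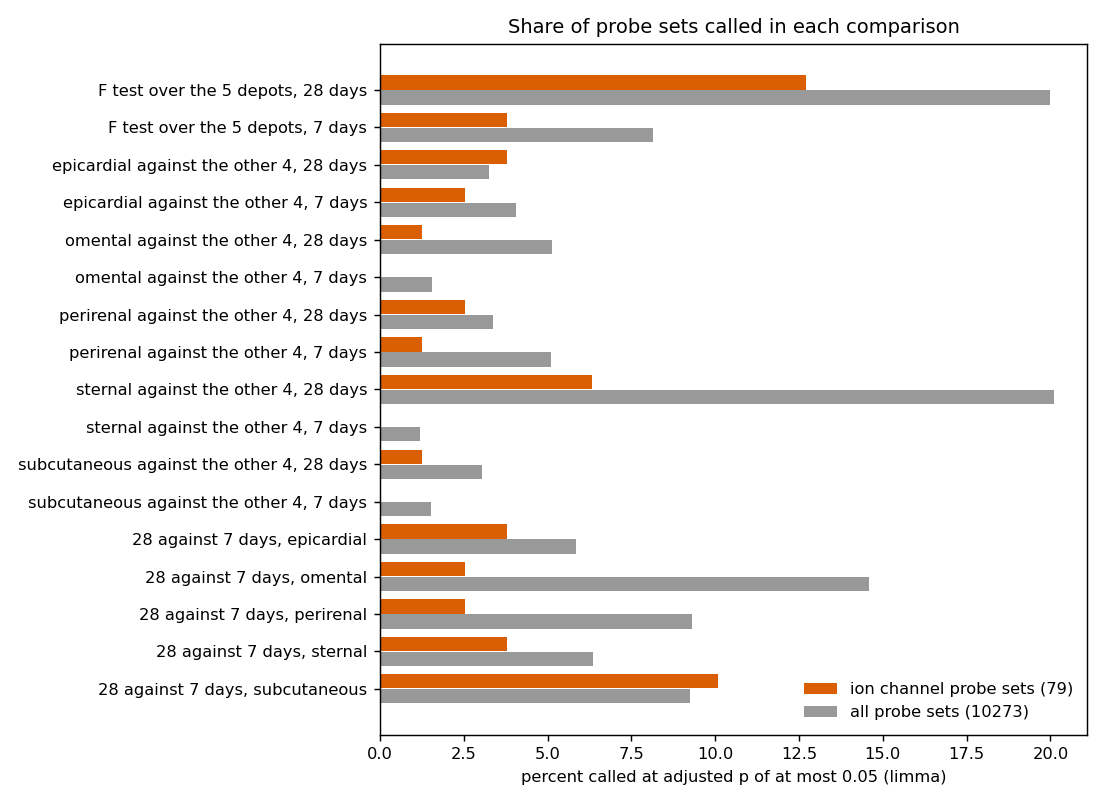
Percent of probe sets called at an adjusted p of at most 0.05 in each comparison, for the 79 ion channel probe sets (upper bar) and all 10273 (lower bar). The members' share is below that of the table in 15 of 17 comparisons and above it for epicardial fat at 28 days and for 28 against 7 days in subcutaneous fat.

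In epicardial fat, KCNJ4, KCNH2 and, at 28 days, RYR2 were higher than in the other depots. Against the mean of the other 4 depots, 3 members were called higher at 28 days and 2 at 7 days, and none lower. The background was 3.24% of all probe sets called at 28 days and 4.07% at 7 days (2.74% higher and 0.506% lower at 28 days, 3.35% and 0.72% at 7 days). The median difference of the 79 members was -0.01 at 28 days and -0.00 at 7 days, beside -0.00 and 0.00 over all probe sets.

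KCNJ4 (probe set 208359_s_at) encodes a strong inward rectifier subunit found in heart and brain. Its log2 signal on the epicardial arrays was 2.49 (I), 5.18 (J), 4.66 (L), 3.57 (N) and 5.07 (O) at 28 days, and 3.48 (A), 4.10 (C), 4.65 (D), 4.85 (E) and 5.66 (G) at 7 days. In omental and subcutaneous fat every array read 2.49 to 2.52 at both ages. At 28 days 4 of the 5 epicardial arrays were above all others and array I sat at the lowest signal, so the groups overlapped, and at 7 days the lowest epicardial array, A, lay within the range of perirenal fat. The epicardial mean was 4.19 ± 1.15 at 28 days (SD, n = 5), 1.70 ± 0.24 above the mean of the other depots (difference ± SE, adjusted p = 0.000146), and 4.55 ± 0.82 at 7 days (SD, n = 5), 1.83 ± 0.21 above it (adjusted p = 7.01e-06).

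Outside epicardial fat, KCNJ4 left the lowest signal mainly in perirenal fat of the younger lambs. All 5 perirenal arrays read 2.49 at 28 days, while those at 7 days read 3.31 (A), 2.58 (B), 3.42 (C), 3.58 (D) and 3.54 (G). The groups did not overlap. In the fit over all groups the change of -0.80 ± 0.29 did not pass (adjusted p = 0.0785), and in a fit of the perirenal arrays alone, added after the data were seen, it did (adjusted p = 0.0217, with 7.27% of all probe sets called). Against omental, sternal and subcutaneous fat only, another added fit, perirenal KCNJ4 at 7 days was 0.76 ± 0.12 higher (3.29 against 2.53, adjusted p = 0.000831, with 6.6% of all probe sets called). KCND3 and KCNIP2, a subunit that binds KCND channels, were the other members called there, by 1.18 and 0.32. UCP1 averaged 2.91 on the perirenal arrays at 28 days and 6.29 at 7 days; the part of brown adipocytes in the KCNJ4 signal was not tested. Sternal array F read 2.92 at 7 days, and the other sternal arrays 2.49 to 2.56 at either age.

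**Figure D3:**
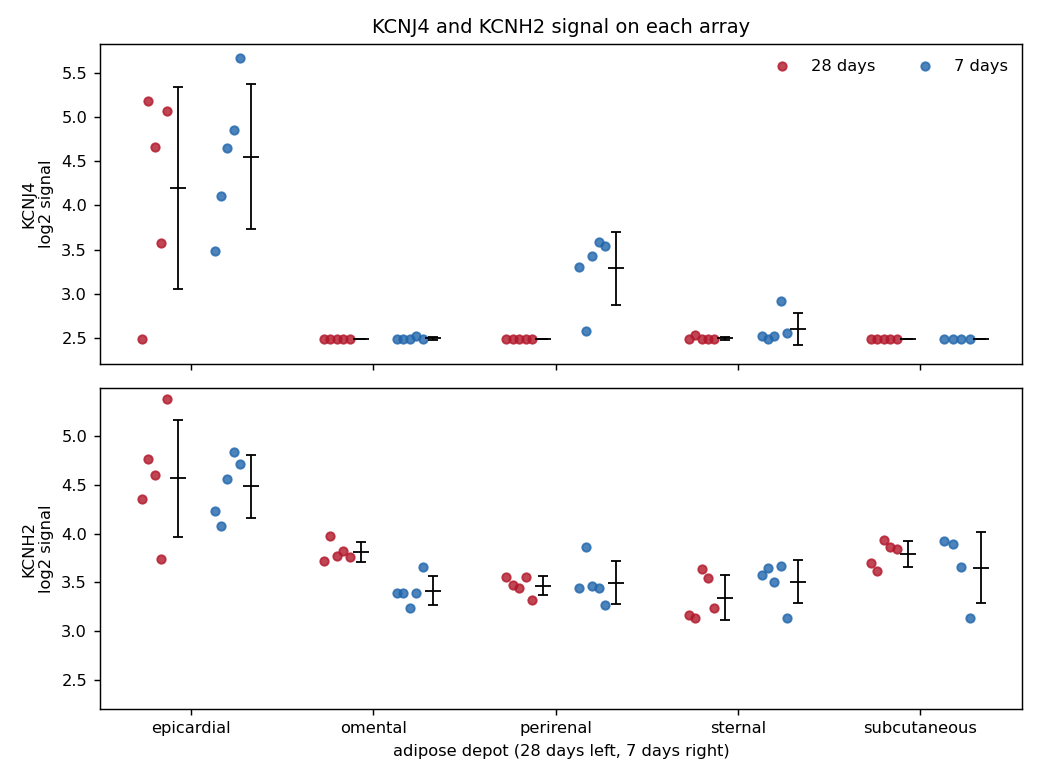
Log2 signal of KCNJ4 and KCNH2 on each array by depot, with 28 days left and 7 days right; points are arrays and bars the mean with its SD (n = 5, and 4 for subcutaneous fat at 7 days). KCNJ4 is at the lowest signal in omental and subcutaneous fat and in perirenal fat at 28 days, and raised in epicardial fat and in perirenal fat at 7 days, while KCNH2 is highest in epicardial fat over a signal of 3.13 to 3.98 elsewhere.

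KCNH2 (205262_at) read 4.36 (I), 4.76 (J), 4.60 (L), 3.74 (N) and 5.38 (O) in epicardial fat at 28 days, and 4.24, 4.08, 4.56, 4.83 and 4.71 at 7 days (A, C, D, E, G). The other depots ran from 3.13 to 3.98 at 28 days and from 3.13 to 3.92 at 7 days. Every epicardial array at 7 days was above every other array of that age, and at 28 days array N fell inside the range of omental and subcutaneous fat. The difference from the mean of the other depots was 0.97 ± 0.14 at 28 days (4.57 against 3.60, adjusted p = 0.000231) and 0.97 ± 0.13 at 7 days (4.48 against 3.52, adjusted p = 4.44e-05). Unlike KCNJ4, KCNH2 did not reach the lowest signal of the table in any depot, its lowest reading being 3.13. Outside epicardial fat all its readings were below 4, and such weak signals do not show by themselves that it was expressed there. Among the other depots omental fat at 28 days was highest, at 3.72, 3.98, 3.77, 3.82 and 3.76, against 3.39, 3.39, 3.24, 3.39 and 3.65 at 7 days, without overlap between the ages. In fits added after the data were seen, omental KCNH2 at 28 days was 0.28 above perirenal, sternal and subcutaneous fat (adjusted p = 0.0396, with 5.13% of all probe sets called) and 0.40 above 7 days (adjusted p = 0.0150, 8.97%), which in the fit over all groups had an adjusted p of 0.124.

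RYR2 (207557_s_at), the calcium release channel of heart muscle, stayed near the lowest signal. Its epicardial values were 2.51 (I), 2.78 (J), 2.76 (L), 2.51 (N) and 2.80 (O) at 28 days, and 2.54, 2.69, 2.51, 2.81 and 2.91 at 7 days (A, C, D, E, G). Arrays I and N were no higher than the other depots, which reached 2.62 at 28 days, and sternal array D at 7 days, 3.02, was the highest of all 49. The difference was 0.16 ± 0.04 at 28 days (2.67 against 2.52, adjusted p = 0.0188). It missed the threshold without array J, L or O (adjusted p = 0.0785 to 0.101), with the replicate number as a fixed block (0.12, adjusted p = 0.229), and at 7 days (0.13 ± 0.06, adjusted p = 0.355).

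Other channels of the cardiac action potential in the set gave little epicardial signal. CACNA1C, the L-type pore of heart muscle, read 2.52 to 2.91 over the 10 epicardial arrays, KCNIP2 2.55 to 3.10 and KCNQ1, the pore of the slow delayed rectifier, 2.95 to 3.30. None was called higher in epicardial fat. KCND3, also a cardiac channel, averaged 4.36 ± 0.30 at 28 days and 4.17 ± 0.50 at 7 days there (SD, n = 5 each), lower in value than in perirenal fat.

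The epicardial signal was then related to TNNI3. TNNI3 read 2.94 (I), 10.66 (J), 10.39 (L), 7.88 (N) and 11.29 (O) on the epicardial arrays at 28 days, and 8.51 (A), 9.36 (C), 11.29 (D), 10.32 (E) and 11.75 (G) at 7 days. It did not exceed 3.15 on any array of another depot. Array I thus read near the lowest signal, and its mean over the 7 heart muscle markers measured, 3.18, was near that of the omental and perirenal arrays, at most 3.10, while the other epicardial arrays had 6.80 to 9.05. On that array KCNJ4 and RYR2 were at or near their lowest values, 2.49 and 2.51, whereas KCNH2, at 4.36, was still above every array of the other depots.

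KCNJ4 followed TNNI3 across the 10 epicardial arrays. Pearson's r was 0.93 (permutation p = 4e-05) and Spearman's rho 0.84 (permutation p = 0.00389), and the Pearson value missed the threshold after Benjamini-Hochberg adjustment over 10272 probe sets (adjusted p = 0.0560, with 0.0487% of all probe sets called). With each age centred on its mean, r was 0.93 (exact permutation within age, p = 0.000417, adjusted p = 0.138; none of the table was called). Within 28 days r was 0.97 and within 7 days 0.93, with 5 arrays each, given as a description. Without the 2 arrays whose TNNI3 lay farthest from the median, I and N, r was 0.91, and leaving out any array in turn gave 0.92 to 0.95. After quantile normalization KCNJ4 was among 6 probe sets called (r = 0.94, adjusted p = 0.0342, 0.0584% of the table). Against the mean of the 7 heart muscle markers r was 0.90 (adjusted p = 0.0811).

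**Figure D4:**
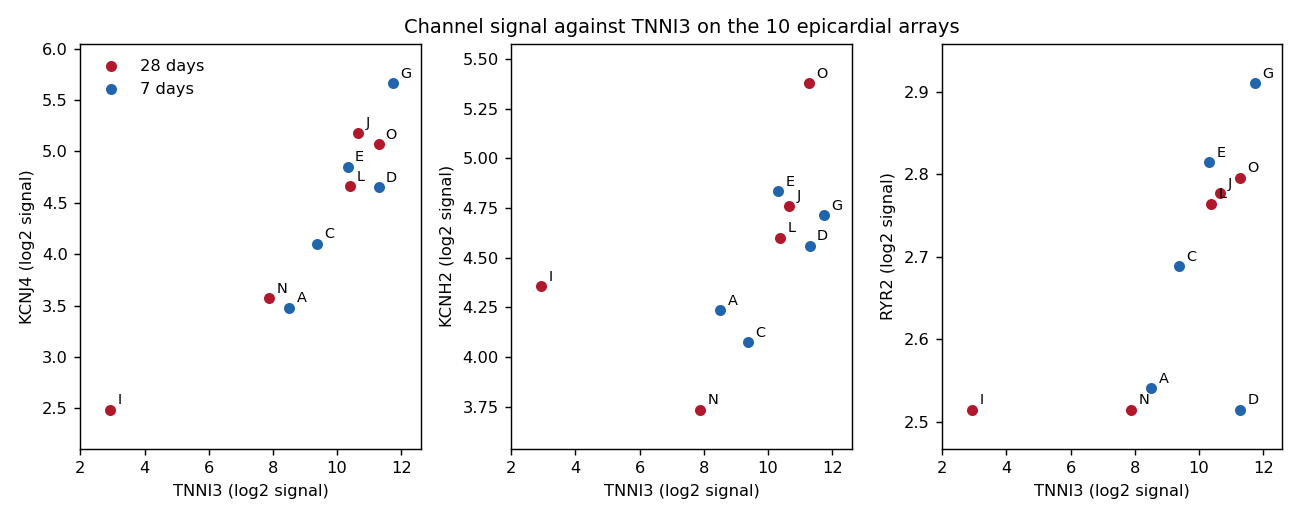
Log2 signal of KCNJ4, KCNH2 and RYR2 (vertical axes) against that of TNNI3 (horizontal axis) on the 10 epicardial arrays, coloured by age and lettered by replicate. KCNJ4 lies along a line with TNNI3 (r = 0.93), KCNH2 is at 4.36 on array I where TNNI3 is at 2.94, and RYR2 spans only 2.51 to 2.91.

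By rank, KCNIP2 and KCNMA1 related to TNNI3 as closely as KCNJ4, although their Pearson's r was lower. KCNIP2 gave rho = 0.85 (permutation p = 0.00313, adjusted p = 0.401) and r = 0.59 (p = 0.0741), and KCNMA1, which was lower where TNNI3 was higher, gave rho = -0.90 (permutation p = 0.00099, adjusted p = 0.337) and r = -0.53 (p = 0.106, and p = 0.00972 by exact permutation within age, adjusted p = 0.494). Over all 10 arrays no other member had a Pearson's r above 0.8, the size that 0.574% of all probe sets passed. RYR2 gave r = 0.63 (permutation p = 0.0269, adjusted p = 0.586), rho = 0.58 (p = 0.0857) and 0.50 without arrays I and N. KCNH2 gave r = 0.50 (permutation p = 0.154, adjusted p = 0.780), rho = 0.64 (p = 0.0549) and 0.69 without them. Array I decided the KCNH2 value, since without it alone r was 0.82. The lowest values, -0.79 for TRPM3, a cation channel (permutation p = 0.0558, rho = -0.39), and -0.76 for KCNS2, a modifier of voltage-gated potassium channels (permutation p = 0.0248, rho = -0.41), rested on array I, since without it they were 0.06 and -0.27, and without I and N -0.02 and 0.29. TRPM3 read no more than 2.53 and KCNS2 no more than 2.78 on any epicardial array. Of the 79 relations, 3 had an unadjusted p below 0.05, against 7.74% of all probe sets, and the median r was 0.03 for the members and 0.01 for the table.

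CKM also read 6.82 to 11.63 on the epicardial arrays with TNNI3, and its part in their KCNJ4 signal was not tested. KCNJ4 read 2.49 on the subcutaneous arrays at 7 days with a CKM of 12.95 and 11.71, and 2.49 to 2.53 on the sternal arrays at 28 days with a CKM of 12.72 and 11.32. On these arrays the channels of skeletal muscle gave weak signals: CACNA1S, its voltage sensor, read 2.98 and CLCN1, its chloride channel, 3.48 on subcutaneous array A. MYL2 and MYH7, which heart and slow skeletal muscle share, read 10.89 and 8.70 on that array, where TNNI3 read 3.13.

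Perirenal fat had higher KCND3 than the other depots at both ages. At 28 days 2 members, KCND3 and CACNG6, were called higher and none lower (3.36% of all probe sets were called, 2.87% higher and 0.487% lower), and at 7 days only KCND3 (5.11% called, 4.58% higher and 0.535% lower). The probe set (213832_at) read 5.67 (I), 5.53 (J), 6.06 (K), 5.81 (M) and 4.06 (N) at 28 days, and 5.62 (A), 6.06 (B), 5.32 (C), 4.88 (D) and 4.77 (G) at 7 days. At 28 days 4 of 5 perirenal arrays were above all arrays of the other depots, whose highest was 5.50, and array N was among the lowest of that age. At 7 days the perirenal arrays overlapped with sternal and omental fat, which reached 5.48 and 5.20, and with epicardial array A, at 5.03. The difference was 1.00 ± 0.23 at 28 days (5.43 against 4.43, adjusted p = 0.0159) and 1.18 ± 0.28 at 7 days (5.33 against 4.15, adjusted p = 0.0176). Neither held throughout: without array I, K or M at 28 days the adjusted p was 0.0527 to 0.0821, in a fit blocked by replicate number it was 0.117 (difference 0.86), and without A or B at 7 days 0.0632 and 0.0624.

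CACNG6, a gamma subunit of calcium channels, was 0.37 ± 0.08 higher in perirenal fat at 28 days (3.05 against 2.67, adjusted p = 0.0135). Arrays I, M and N, at 3.24, 3.23 and 3.37, carried the difference, and J and K, at 2.67 and 2.72, were within the range of the other depots, 2.50 to 3.05. Without I, M or N the adjusted p was 0.0596 to 0.0667.

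In omental fat 1 member, CACNA1G, was called higher at 28 days (5.12% of all probe sets called, 4.76% higher and 0.36% lower) and none at 7 days (1.54%, with 6 members at an unadjusted p below 0.05). CACNA1G forms a T-type calcium channel, which opens at low voltage. The omental arrays at 28 days read 3.65 (I), 3.87 (J), 4.31 (M), 4.05 (N) and 4.34 (O), above every epicardial, perirenal and sternal array of that age, the nearest being sternal array N at 3.62. Subcutaneous fat overlapped, with 3.75 (H), 3.13 (I), 3.55 (J), 4.22 (M) and 3.66 (N). The difference from the other depots was 0.71 ± 0.13 (4.05 against 3.34, adjusted p = 0.00212).

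Sternal fat at 28 days had 5 members called lower and none higher, KCND3, KCNH2, CACNA1G, KCNQ1 and KCNS2. This was 6.33% of the members, where 20.1% of the table was called, 18.4% as lower and 1.65% as higher, and the median difference was -0.03 for the members and -0.07 for the table. KCND3 was 0.70 ± 0.23 lower (4.07 against 4.77, adjusted p = 0.0331), with 4.11, 4.06, 3.95, 4.16 and 4.06 on the arrays. KCNH2 was 0.57 ± 0.14 lower (3.34 against 3.91, adjusted p = 0.00734), with 3.16, 3.13, 3.64, 3.54 and 3.24. CACNA1G was 0.43 ± 0.13 lower (3.13 against 3.56, adjusted p = 0.0236). KCNQ1 was 0.37 ± 0.09 lower (2.71 against 3.08, adjusted p = 0.00430) and KCNS2 0.16 ± 0.05 lower (2.59 against 2.75, adjusted p = 0.0365). Each of the first 3 overlapped with other depots, and the KCND3 call was lost without any of the 5 sternal arrays (adjusted p = 0.0547 to 0.0806), the KCNS2 call likewise (0.0539 to 0.113) and the CACNA1G call without I, M or O (0.0607 to 0.0860). With the replicate number as a fixed block KCND3 and KCNS2 missed the threshold too (adjusted p = 0.104 and 0.0782). All 5 calls were lost under quantile normalization, which evens out the lower level of these arrays, and 4 other members were then called higher there, KCNMA1 by 0.90, CLCN5 by 0.32, KCNJ16, another inward rectifier, by 0.20 and KCNQ1-AS1 by 0.14. The share of all probe sets called higher under that setting is not given here. These 4 calls are therefore not set against a background. No member was called in sternal fat at 7 days (1.2% of all probe sets called, 7 members at an unadjusted p below 0.05).

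In subcutaneous fat CLCN5 was called higher at 28 days (3.04% of all probe sets called, 2.58% higher and 0.458% lower) and no member at 7 days (1.53%, with 6 at an unadjusted p below 0.05). CLCN5 (226274_at) read 5.98 (H), 6.17 (I), 6.10 (J), 5.91 (M) and 5.73 (N) at 28 days, against 5.78 to 6.07 in omental fat and 5.47 to 5.76 in the other 3 depots. Subcutaneous and omental arrays overlapped, and the difference from the 4 depots was 0.24 ± 0.06 (5.98 against 5.74, adjusted p = 0.0233, 0.0538 to 0.105 without H, I or J, and 0.113 in a fit blocked by replicate number). This difference also missed the threshold after quantile normalization (adjusted p = 0.172) and with a trended robust variance (0.102). The same held without sternal and subcutaneous arrays with a CKM above 4 (0.242) and in the added fit without epicardial arrays (0.0726). The 4 subcutaneous arrays at 7 days read 6.29, 6.52, 6.33 and 6.01, and omental arrays A and C at 7 days, 6.86 and 7.20, were the highest of all. KCNMA1, the third brightest member, was called in no depot and at no age by the same test. Its spread within groups was wide, from 2.70 to 5.24 in epicardial and 2.83 to 5.19 in omental fat at 7 days, with single high arrays in sternal fat, M at 6.75 at 28 days and B at 7.03 at 7 days.

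The other question was how the channels changed between 7 and 28 days within a depot. Over the 5 depots, 13 members and 18 pairs of member and depot were called, 15 higher at 28 days and 3 lower. In epicardial fat 3 members were called, all higher at 28 days (5.84% of all probe sets called, 4.21% higher and 1.63% lower). In omental fat 2 were higher (14.6% called, 13.5% higher and 1.03% lower), and in perirenal fat also 2 (9.32%, 6.23% and 3.09%). In sternal fat 1 was higher and 2 were lower (6.37%, 2.47% and 3.89%), and in subcutaneous fat 7 were higher and 1 was lower (9.25%, 7.68% and 1.57%). The members' share was 3.8% in epicardial and sternal fat, 2.53% in omental and perirenal fat and 10.1% in subcutaneous fat. It exceeded that of the table only in subcutaneous fat. Of the 15 pairs that were higher, 5 were CACNA1A or CACNA1G, each counted once per depot. The pooled counts have no share of all probe sets beside them and are not read as a result about calcium channels.

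CACNA1A (214933_at) was higher at 28 days in epicardial, omental and subcutaneous fat. In epicardial fat it read 6.55, 5.95, 6.63, 6.10 and 5.90 at 28 days (I, J, L, N, O), against 5.56, 4.67, 4.00, 5.21 and 4.68 at 7 days (A, C, D, E, G). The ages did not overlap there, and the change was 1.40 ± 0.25 (6.23 against 4.82, adjusted p = 0.000302). Omental arrays read 5.93, 5.64, 5.85, 5.41 and 5.66 at 28 days, against 5.21, 4.65, 5.32, 4.81 and 4.48 at 7 days, again without overlap (0.80 ± 0.25, adjusted p = 0.0259), although the adjusted p was 0.0514 to 0.0799 without C, E, G, I or M. Subcutaneous arrays read 6.11, 5.51, 5.48, 6.11 and 5.50 at 28 days, against 4.72, 5.48, 5.01 and 4.18 at 7 days, where the ages met at 5.48 (0.89 ± 0.27, adjusted p = 0.0281, and 0.0722 to 0.160 without A, G, H or M). The change was 0.69 ± 0.25 in perirenal fat (adjusted p = 0.0872) and 0.11 ± 0.25 in sternal fat (adjusted p = 0.988). The change in epicardial fat exceeded the mean change of the other depots by 0.78 ± 0.29, which did not pass (adjusted p = 0.384, with 0.146% of all probe sets called and no member), so the depots are not shown to differ. The mean of the 5 neuron and glia markers measured was 2.73 to 4.14 on the epicardial arrays at 28 days and 2.64 to 3.59 at 7 days, and its part in the change was not tested. Under quantile normalization the omental and subcutaneous changes missed the threshold (0.45, adjusted p = 0.337, and 0.65, adjusted p = 0.167).

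**Figure D5:**
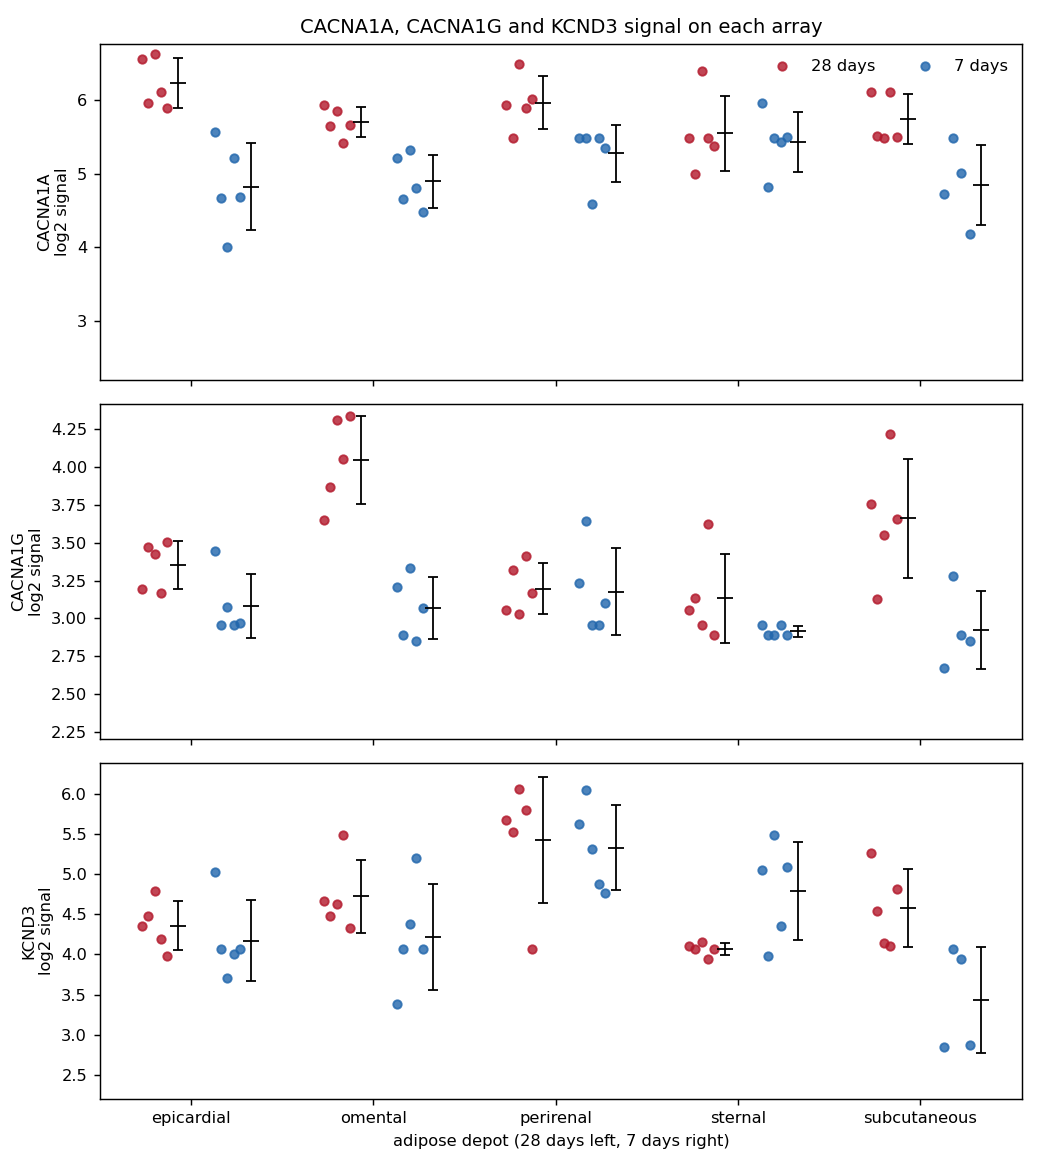
Log2 signal of CACNA1A, CACNA1G and KCND3 on each array by depot, with 28 days left and 7 days right; points are arrays and bars the mean with its SD (n = 5, and 4 for subcutaneous fat at 7 days). CACNA1A is higher at 28 days without overlap in epicardial and omental fat, CACNA1G in omental fat, and KCND3 is highest in perirenal fat.

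CACNA1G (210380_s_at) was higher at 28 days in omental and subcutaneous fat. The 5 omental arrays given above, 3.65 to 4.34, stood against 3.21 (A), 2.89 (C), 3.33 (D), 2.85 (E) and 3.07 (G) at 7 days, without overlap, and the change was 0.98 ± 0.15 (4.05 against 3.07, adjusted p = 1.25e-05). In subcutaneous fat the arrays at 7 days read 2.67 (A), 3.28 (E), 2.89 (F) and 2.85 (G), so that array E lay above array I of 28 days, and the change was 0.74 ± 0.16 (3.66 against 2.92, adjusted p = 0.00236). The other depots changed by 0.27 (epicardial), 0.02 (perirenal) and 0.22 (sternal), none past the threshold. The omental change was 0.67 ± 0.17 larger than the mean of the other depots (0.98 against 0.31, adjusted p = 0.0167, with 3.97% of all probe sets called and 2 members). This difference missed the threshold under quantile normalization (0.45, adjusted p = 0.216) and without array M (0.60, adjusted p = 0.0534).

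CACNA1I (221631_at), another T-type pore, was the other member with a depot-dependent change in omental fat. It changed by 0.38 there and by -0.32 on average elsewhere, a difference of 0.70 ± 0.20 (adjusted p = 0.0355). Omental arrays read 3.54, 3.50, 3.16, 3.27 and 3.16 at 28 days, against 2.66, 2.60, 3.19, 3.15 and 3.13 at 7 days, and the ages overlapped. In sternal fat, where it was called lower at 28 days by 0.63 ± 0.18 (adjusted p = 0.0218), arrays read 3.10, 3.16, 2.56, 3.09 and 3.07 at 28 days, against 3.76, 3.68, 4.24, 3.11 and 3.36 at 7 days. Array F of 7 days, at 3.11, lay inside the range of 28 days. The omental difference missed the threshold without any of arrays A, C, I, J or N (adjusted p = 0.0530 to 0.0877), and the sternal change without B, E or M (0.0540 to 0.115).

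KCND3 was higher at 28 days in subcutaneous fat, and its change in sternal fat differed from that of the other depots. Subcutaneous arrays read 5.27, 4.54, 4.15, 4.10 and 4.81 at 28 days (H, I, J, M, N), against 2.84 (A), 4.06 (E), 3.95 (F) and 2.88 (G) at 7 days. The ages did not overlap, and the change was 1.14 ± 0.35 (4.57 against 3.43, adjusted p = 0.0302). It missed the threshold without A, G, H or N (adjusted p = 0.0591 to 0.126). The lowest arrays, A and G, were those with the highest CKM of that group, 12.95 and 11.71. Sternal fat, at 3.95 to 4.16 at 28 days, stood against 5.06 (B), 3.98 (D), 5.48 (E), 4.36 (F) and 5.10 (G) at 7 days, a change of -0.73 ± 0.33 that did not pass (adjusted p = 0.238). The sternal change differed from the mean of the others by -1.21 ± 0.37 (-0.73 against 0.48, adjusted p = 0.0419, with 5.52% of all probe sets called). The adjusted p of this difference was 0.159 under quantile normalization, and 0.0502 to 0.108 on leaving out any of 13 arrays, 7 of them sternal. In perirenal fat no member had a change that differed from the other depots (1.27% of all probe sets called, 8 members at an unadjusted p below 0.05), nor in subcutaneous fat (1.65%, also 8 members).

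The remaining changes with age were of members near the lowest signal, each smaller than those above. In perirenal fat KCNS2 read 2.64, 2.85, 2.81, 2.88 and 2.97 at 28 days, against 2.63 on all 5 arrays at 7 days (0.20 ± 0.05, adjusted p = 0.00878). SCN1A, a neuronal sodium channel pore, read 2.89, 2.67, 2.97, 3.79 and 2.88 there at 28 days, against 2.66 on all arrays at 7 days (0.38 ± 0.11, adjusted p = 0.0257). Without array M, at 3.79, the SCN1A change was 0.19 (adjusted p = 0.207). In epicardial fat TRPC1, a cation channel, was 0.36 ± 0.11 higher at 28 days (3.07 against 2.72, adjusted p = 0.0359), and 0.20 without array N (adjusted p = 0.253), with 0.0519 to 0.122 for the adjusted p without A, D, E, G or J. KCNN3, a small-conductance calcium-activated potassium channel, was 0.24 ± 0.07 higher there (adjusted p = 0.0386), with 2.75, 2.49, 2.87, 2.51 and 3.02 at 28 days against 2.49 or 2.50 on every array at 7 days. Leaving out any epicardial array but J or N ended the KCNN3 call (adjusted p = 0.0588 to 0.187).

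In sternal fat 2 of the 3 called members were lower at 28 days, CACNA1I and CACNG6. CACNG6 was 0.55 ± 0.16 lower (2.61 against 3.16, adjusted p = 0.0229), with 2.55 to 2.66 at 28 days against 2.80, 2.66, 2.79, 4.13 and 3.41 at 7 days. The change rested on array F, at 4.13, without which it was -0.31 (adjusted p = 0.165), and missed the threshold without G too (adjusted p = 0.0791). CACNB3, a beta subunit of calcium channels, was 0.28 ± 0.08 higher at 28 days (2.87 against 2.59, adjusted p = 0.0188), and without array I or N at an adjusted p of 0.127 or 0.0756.

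In subcutaneous fat 5 further members were called, none of them bright. HCN2, a pacemaker channel, read 2.77, 3.24, 3.43, 3.56 and 2.76 at 28 days, against 2.71 on all 4 arrays at 7 days (0.44 ± 0.12, adjusted p = 0.0130, and 0.0622 without M). KCNK10, a mechanically gated leak channel, CACNB3 and KCNS2 were higher by 0.31, 0.29 and 0.19, and each missed the threshold without some single array. SCN8A, another neuronal sodium channel pore, was 0.27 lower (adjusted p = 0.0309), which came from arrays A and E of 7 days, at 2.85 and 3.32, and was 0.09 lower without E (adjusted p = 0.391). At 7 days 3 of the 4 subcutaneous arrays had a CKM above 4. Without the sternal and subcutaneous arrays of that kind, subcutaneous array F was the lone array at 7 days, so only the sizes are given. KCND3 then differed by 0.93, CACNA1A by 0.70 and CACNA1G by 0.62. KCNK10 differed by 0.29, KCNS2 by 0.24, HCN2 by 0.21, CACNB3 by 0.19 and SCN8A by 0.00.

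Of 36 differences called between depots, with age or between the changes with age, 7 kept their call under every alternative tried: KCNJ4 and KCNH2 in epicardial fat at both ages, CACNA1G in omental fat at 28 days and with age, and CACNA1A with age in epicardial fat. KCNJ4, KCNH2 and CACNA1G fall below the signal minimum of 4 and were not tested under that alternative. The other 29 lost their call under at least 1 alternative, and none changed sign.

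Outside the naming rule, KCNK12, a 2-pore-domain channel subunit, was picked after its values were seen, because it lay far above the lowest signal on scattered arrays. It was above 4 on 6 arrays, at 4.04 in perirenal fat at 28 days (M), and at 4.02 and 5.83 in perirenal (A, D), 4.67 and 4.99 in sternal (D, E) and 4.07 in epicardial fat (E) at 7 days. Another 29 arrays read 2.49, and no comparison called it.

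Genes that move ions outside the set were counted from lists. Of 37 genes of calcium storage and excitation-contraction coupling, 27 were measured, and 4 were higher in epicardial fat at 28 days and 5 at 7 days, with none lower, where 2.74% and 3.35% of all probe sets were higher. At both ages these included ANK3, an ankyrin that anchors channels (3.39 and 4.13), CAMK2D, a calcium-dependent kinase of heart (0.84 and 1.69), and PLN, the regulator of the calcium pump of the sarcoplasmic reticulum (0.75 and 0.71). The median difference of the 27 was 0.01 at either age, beside -0.00 at 28 days and 0.00 at 7 days over all probe sets. SLC8A1, the sodium-calcium exchanger, and HRC, a calcium-binding protein of the reticulum, were called at 7 days (0.37 and 2.19), and FKBP1B, a partner of RYR2, at 28 days (0.66). In sternal fat at 28 days 5 of the 27 were lower, a share like the 18.4% of all probe sets, among them the calcium pumps ATP2B1 by 0.78 and ATP2A2 by 0.54.

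Of 10 sodium pump genes 5 were measured, and in epicardial fat 1 was higher at 28 days and 2 at 7 days, with the same 2.74% and 3.35% of all probe sets. ATP1B1, the beta subunit of the pump, was higher in epicardial fat at 28 days (10.60 against 8.48, adjusted p = 0.0141) and at 7 days (11.92 against 9.36, adjusted p = 0.000840), and lower in perirenal fat at 28 days (7.34 against 9.30, adjusted p = 0.0240). FXYD1, phospholemman, was higher in epicardial fat at 7 days by 0.72. Of 40 other channel genes 22 were measured, and in epicardial fat at 7 days 1 was higher and 1 lower, where 3.35% and 0.72% of all probe sets were. GJA1, a gap junction protein, was higher by 0.71 and PIEZO1, a mechanically gated channel, lower by 0.74 there. The mitochondrial VDAC2 was lower at 28 than at 7 days in epicardial fat by 0.94.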

How the data were processed

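RNA from 5 adipose depots of lambs was hybridised to human Affymetrix arrays, 25 at 28 days and 24 at 7 days. The deposited table holds log2 expression values, which the authors made with GCRMA background correction and normalization in the affy package; the sources used here name no version. Human probes bind sheep RNA unevenly, so signals of different genes are not compared as amounts. Of 10273 probe sets, 9780 carried 1 gene symbol, 6 several and 487 none.

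Differences were fitted with limma 3.58.1 in R 4.3.3, with 1 fit per age over the 5 depots and 1 fit over the 10 groups for changes between ages and their differences between depots. P-values were adjusted by Benjamini-Hochberg over all 10273 probe sets, and a difference was called at an adjusted p of at most 0.05. Relations with TNNI3 used 100000 permutations, or all permutations within age (numpy 2.4.6 and scipy 1.17.1, Python 3.11.15). The fit of the 7 days arrays was tried on simulated data, for the epicardial contrast only. The simulated noise was normal, with no lowest signal and no recurring values, and the age contrasts were not simulated. It therefore does not show how the fits behave for members near the lowest signal.

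Groups came from the titles. A description shared by all samples names another age range, and the titles were followed. The number of arrays limits the precision. The members and gene lists were chosen with earlier results of these data known. Members named were the 8 called per age with the widest range of depot means, the 3 largest called differences of each depot or age contrast, the 6 brightest, the 4 with the largest r with TNNI3 and those called in a difference of age changes. KCNK12, KCNIP2, KCNJ16, KCNQ1-AS1, CACNA1C, CACNA1S, CLCN1, HCN2 and SCN8A were named outside this rule after their values were seen. Alternatives were quantile normalization, a signal minimum of 4, a trended and robust variance model, the replicate number as a block, leaving out arrays with a CKM above 4 and leaving out each array.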

Additional observations from a re-analysis of the deposited data

Results flagged for a closer look

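In groups of 4 or 5 arrays, 11 values of the members named stood apart from the rest of their group by Dixon's test, among 81 groups whose range was at least 0.1. For continuous values chance gives about 1 in 20, or 4.05. Recurring values break that assumption, as for SCN8A, where the other subcutaneous arrays at 28 days all read 2.49. The 4.05 is therefore only a rough guide. At 28 days they were KCND3 on perirenal array N (4.06, next 5.53), SCN1A on perirenal M (3.79, next 2.97), CACNA1I on sternal M (2.56, next 3.07), CLCN5 on epicardial O (5.47, next 5.69) and SCN8A on subcutaneous J (2.66, next 2.49). At 7 days they were KCNMA1 on sternal array B (7.03, next 5.48), KCND3 on epicardial A (5.03, next 4.06), CACNA1G on epicardial A (3.45, next 3.08), CACNA1A on perirenal C (4.59, next 5.35), and KCNJ4 on perirenal B (2.58, next 3.31) and sternal F (2.92, next 2.56).

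The change between ages differed between depots for 3 members by limma's test of the difference itself. The omental change exceeded the mean of the others by 0.67 for CACNA1G (adjusted p = 0.0167) and by 0.70 for CACNA1I (adjusted p = 0.0355), and the sternal change of KCND3 differed by -1.21 (adjusted p = 0.0419).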

How the results depend on the processing

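Array number, weak signals and recurring values limit these results. Of the 36 called differences, 19 lost their call under quantile normalization, 23 of 36 without sternal and subcutaneous arrays with a CKM above 4 (which leaves subcutaneous array F alone at 7 days, assumed to vary like the other groups), 2 of 36 with a trended robust variance, and none of the 9 that could be tested at a mean signal of at least 4. In fits added after seeing the data, 15 of 18 age changes lost their call with only that depot's arrays and 1 of 10 depot differences without epicardial arrays. The causes were not tested.

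For the counts of members from here on, the share of all probe sets called under each setting is not given. They are therefore not read as a result about the members. The signal minimum removed most members before the fit, since only 4 of the 79 averaged at least 4 over the 49 arrays. Its lower counts thus follow at least in part from that filter. Members called, where the count moved by over 1.5 times, were as follows. Quantile normalization gave 0 for perirenal fat at 7 days (1 before), 0 for subcutaneous at 28 days (1), 1 for the epicardial age change (3), 2 for the subcutaneous (8), 0 for the omental (2) and sternal (1) differences in age change, and 1 for TNNI3 (0). The signal minimum gave 3 in the F test at 28 days (10), 0 for epicardial fat at 28 days (3) and 7 days (2), 0 for omental (1), 1 for perirenal (2) and 2 for sternal fat (5) at 28 days, 1 for subcutaneous fat at 7 days (0), age changes of 1 (3), 1 (2), 1 (2), 0 (3) and 2 (8) in epicardial, omental, perirenal, sternal and subcutaneous fat, and differences in age change of 0 for omental (2) and 2 for sternal fat (1). Leaving out the CKM arrays gave 4 in the F test at 28 days (10), 1 for perirenal (2) and 3 for sternal fat (5) at 28 days, 0 for perirenal (1) and 1 for subcutaneous fat (0) at 7 days, age changes of 1 in epicardial (3), 1 in perirenal (2) and 0 in subcutaneous fat (8), and differences in age change of 1 for omental (2) and 0 for sternal fat (1). The trended variance gave 0 for subcutaneous fat at 28 days (1). Without epicardial arrays the counts were 0 for subcutaneous (1) and 2 for omental fat (1) at 28 days and 3 for perirenal fat at 7 days (1), and with only that depot's arrays the age changes were 1 in epicardial (3), 0 in sternal (3) and 0 in subcutaneous fat (8).

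Leaving out each array in turn gave, at 28 days, 7 to 10 in the F test, 2 to 4 for epicardial, 1 to 2 for omental, 0 to 3 for perirenal, 3 to 6 for sternal and 0 to 2 for subcutaneous fat. At 7 days it gave 3 to 5 in the F test, 2 to 3 for epicardial, 0 to 2 for perirenal and 0 to 1 for omental, sternal and subcutaneous fat. Age changes gave 1 to 3, 1 to 5, 2 to 4, 2 to 3 and 3 to 7 members in epicardial, omental, perirenal, sternal and subcutaneous fat, and their differences 1 to 2 for omental, 0 to 3 for sternal and 0 to 1 for subcutaneous fat. The r of TRPM3 with TNNI3 ran from -0.88 to 0.064, the positive value without epicardial array I.

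The authors describe the depots of an age as coming from the same animals. The labels do not tie the replicate numbers to animals, and numbers were not taken as pairs. There were 8 distinct numbers at 28 days and 7 at 7 days, and not every number recurred in every depot. Same-numbered arrays had a median correlation of 0.057 at 28 days and 0.046 at 7 days, against -0.009 and -0.011 for other pairs, and exceeded 0.1 in 12 of 39 and 6 of 33 pairs, against 12 of 211 and 15 of 197; over bright probe sets the medians were 0.127 and 0.109, against -0.020 and -0.019. Under a fixed replicate block, 5 of 15 depot differences lost their call, giving 1 for perirenal (2), 3 for sternal (5) and 0 for subcutaneous fat (1) at 28 days. As a random block none of 36 did. No number occurs at both ages, so the fixed block was not run for age changes.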
